A study of Mus musculus with 4 samples.

Results

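The transcription regulators of meiosis Stra8, Gm4969 (the gene of MEIOSIN), Zfp541, Kctd19, Mybl1 and Tcfl5, were followed in RNA-seq libraries of mouse spermatogonia. They were chosen by name and were 6 of the 55421 genes in the deposited count table. Stra8 and Gm4969 were taken as early regulators, which act when germ cells enter meiosis, and the other 4 as later regulators, which act during meiotic prophase.

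The libraries were made from primary cultures of undifferentiated spermatogonia (spermatogonial stem cell or SSC cultures) of CD1 mice, grown from neonatal testes on irradiated mouse embryonic fibroblasts (MEFs) of outbred CF1 mice. In the Veh group the cultures were kept in complete SSC medium with N2, bFGF and GDNF. In the NRRA group most of that medium was replaced by Earle's balanced salt solution (EBSS), which supplies salts and glucose but no amino acids, and retinoic acid (RA) was added. Each group had 2 libraries. The comparison asked how the response to nutrient restriction with RA appears in CD1 cultures. Nutrient restriction and RA were given together in the NRRA libraries, so their shares in a change cannot be told apart here, and MEF RNA was present in every library. The field for the treatment protocol reads NRRA for all 4 samples, and the groups were taken from the titles.

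RA binds nuclear receptors that occupy DNA as paired hexamers, and Stra8 is a known RA target in spermatogonia. STRA8 and MEIOSIN are DNA-binding partners that together switch on genes of meiotic prophase as germ cells leave the mitotic cycle. Later, ZFP541 and KCTD19 work in a histone deacetylase complex in spermatocytes, A-MYB (the product of Mybl1) drives pachytene genes and piRNA precursors, and TCFL5 is a basic helix-loop-helix factor of spermatocytes and spermatids.

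Promoter sequence is shown for the 4 of 6 regulators found among the RefSeq promoter windows (GRCm38.p6), which run from 250 bases before to 50 bases after an annotated transcription start. Only bases outside annotated exons are printed. They are shown because RA receptors, STRA8, MYB factors and E2F6 are known to act at promoters, so that a reader can set these letters beside the values of the genes. Both strands were searched for the hexamer AGGTCA, which RA receptors bind, and for its forms AGTTCA, then GGGTCA, and also GGTTCA. The other motifs were CNCCTCAG for STRA8, AACNGTT for MYB factors with the looser MYB form CNGTTA, the E-box CACGTG with the general form CANNTG, the E2F6 motif TTCCCGC and the cAMP response element TGACGTCA. CACGTG is contained in CANNTG. Capitals mark matches of all of these other than CANNTG. Positions are counted from the start site, with negative numbers upstream. The window of Stra8 lies wholly within an annotated exon, so only the 30 bases around each of its 2 matches are given, on the plus strand at chr6:34920742-34920771 (-206 to -177) and chr6:34920898-34920927 (-50 to -21).
Stra8, distal hexamer: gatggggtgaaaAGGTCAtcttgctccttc
Stra8, proximal hexamer: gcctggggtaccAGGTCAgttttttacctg
Gm4969, chr7:19118369-19118594, minus strand: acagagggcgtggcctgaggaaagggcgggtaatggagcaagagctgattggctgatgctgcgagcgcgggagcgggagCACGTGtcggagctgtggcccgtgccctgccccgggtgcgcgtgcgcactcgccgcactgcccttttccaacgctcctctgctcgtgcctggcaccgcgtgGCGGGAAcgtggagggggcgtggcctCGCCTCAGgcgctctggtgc
Zfp541, chr7:16071595-16071844, plus strand: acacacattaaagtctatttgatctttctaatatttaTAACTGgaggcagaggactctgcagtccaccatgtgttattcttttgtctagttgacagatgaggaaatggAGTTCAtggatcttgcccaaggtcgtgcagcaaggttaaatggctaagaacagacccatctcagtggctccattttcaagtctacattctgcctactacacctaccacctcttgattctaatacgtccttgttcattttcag
Tcfl5, chr2:180642709-180642941, minus strand: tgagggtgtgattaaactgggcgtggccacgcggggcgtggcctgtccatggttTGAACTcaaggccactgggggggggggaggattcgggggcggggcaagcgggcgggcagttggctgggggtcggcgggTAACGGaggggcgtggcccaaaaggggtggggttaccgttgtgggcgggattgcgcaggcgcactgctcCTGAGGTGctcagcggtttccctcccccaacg

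Both matches in the Stra8 window were AGGTCA hexamers, at -194 to -189 and -38 to -33. Neither was paired with a second hexamer of the forms searched. The printed letters before the distal one read GGGTGA and then 2 more bases, and GGGTGA was not among the forms searched. A hexamer was present in 43.7% of all 32851 promoter windows. The Gm4969 window, found under its RefSeq symbol Bhmg1, held a CACGTG E-box at -171 to -166, an E2F6 motif at -70 to -64 and a STRA8 motif at -44 to -37. Of all windows, 7.15% held CACGTG, 4.6% the E2F6 motif and 7.94% the STRA8 motif. The Tcfl5 window also held a STRA8 motif, at -49 to -42, with a MYB motif at -118 to -113 and an RA receptor hexamer at -196 to -191. The Zfp541 window held a MYB motif at -213 to -208 and an RA receptor hexamer at -142 to -137. This start, at base 16071845, lies well inside the annotated Zfp541 gene, whose first base is 16061814. The printed Zfp541 letters are thus bases between annotated exons of the gene and not upstream of it. The Stra8 start also lies inside its annotated gene, 785 bases downstream of the first annotated base. Both Stra8 hexamers thus lie within the annotated gene and not upstream of it. The MYB motif CNGTTA was found in 23.3% and CANNTG in 72.3% of all windows. None of the 4 windows held a direct repeat of the searched hexamers with 1, 2 or 5 bases between them (0.588% of all windows). AACNGTT and TGACGTCA were also in none of the 4 windows, against 4.45% and 1.79% of all windows. Looser hexamer forms were not searched, so paired hexamers with other letters may be present. A match describes letters and does not show binding, and no match says only that these letters are not in this window.

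Gene counts totalled between 28022265 and 31604769 per library, and 20232 genes were tested. Levels are given as CPM, counts per 1000000 counts of the TMM-adjusted library, a count of 3 was taken as the floor and equalled 0.0921 to 0.111 CPM, and 95% intervals on single libraries are exact Poisson intervals that cover counting error only, since PCR copies were not told apart. The log2 fold change sets NRRA over Veh. A gene was called higher or lower where the adjusted p of edgeR's quasi-likelihood test was under 0.05. In all, 27.9% of the tested genes were called higher and 28.4% lower, with a median log2 fold change of 0.00029. The study describes its sequencing in general as done on independent biological replicates, but the labels tie no library to a culture or mouse, so p-values measure the spread between these libraries, which may be technical. The germ cell markers Ddx4 (268 to 278 CPM) and Dazl (624 to 749 CPM) were present in all 4 libraries. The 10 germ cell markers summed to 1688 and 1762 CPM in Veh and 1809 and 1802 CPM in NRRA. The 15 fibroblast markers summed to 9402 and 9313 CPM in Veh and to 7293 and 7158 CPM in NRRA, where 12 of them were called lower and 2 higher, Col3a1 by 0.61 and Pdgfra by 0.98 on the log2 scale. Most of the fall in the sum was Fn1, from 6143 and 6087 to 4362 and 4352 CPM. Undifferentiated spermatogonia markers were called lower for 12 of 14 genes, with a median of -2.80, while Sall4 was higher (0.84) and Eomes was not called (-0.41). Among 8 markers of differentiating spermatogonia, a list that holds Stra8 itself, 6 were called higher (Stra8, Kit, Sohlh1, Sohlh2, Rhox13 and Prss50) and Ccnd2 (-0.59) and Dmrtb1 (-0.47) lower. DESeq2 called 5 higher and 1 lower, and the calls of Prss50 and Dmrtb1 were lost under 6 and 2 of 13 alternatives. The 11 Sertoli and Leydig cell markers summed to 41.9 and 45.8 CPM in Veh and to 25.7 and 25.9 CPM in NRRA, where Sox9 was called lower (-1.59) and Star higher (0.31, a call lost under 6 of 13 alternatives). Amh, Rhox5, Insl3 and Hsd3b1 had between 0 and 6 counts in every library. The part of these cell type markers in the results below was not tested. In bulk libraries fewer cells of a type and less RNA per cell cannot be told apart.

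Both early regulators and, of the later ones, Zfp541 were called higher under all 13 alternatives tried. Of the 6 regulators, edgeR called 4 higher in NRRA, where 27.9% of all tested genes were called higher, and 1 lower, where 28.4% were, and 1 was not called. DESeq2 called 3 higher and 0 lower. Stra8 rose by 188-fold and Gm4969 by 4.76-fold. Among the later ones, Zfp541 rose 2.49-fold and Kctd19 2.21-fold, Mybl1 was called slightly lower (-0.29 on the log2 scale) and Tcfl5 showed no detectable change. The calls of Kctd19 and Mybl1 were lost with DESeq2 and in 3 of 4 fits each that left out 1 library. The plot of CPM by library shows that all 6 were measured above the floor in every library.

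**Figure D1:**
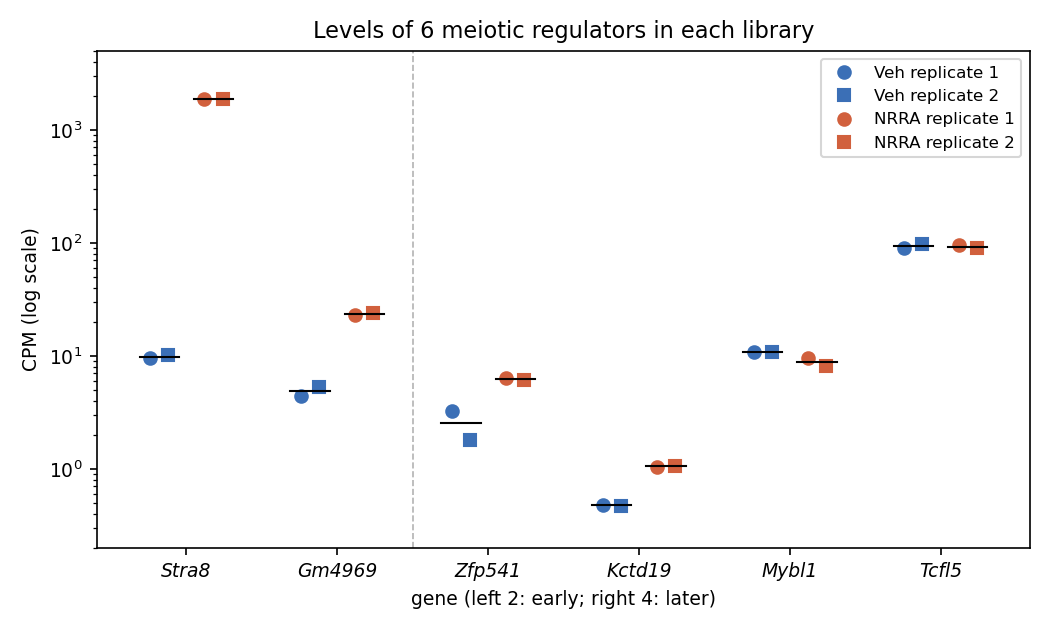
CPM of the 6 regulators on a log axis in the 2 Veh (blue) and 2 NRRA (orange) libraries, with a black bar at each group mean (n = 2). Stra8 moves from 9.62 and 10.1 to 1864 and 1853 CPM, Gm4969, Zfp541 and Kctd19 lie higher in both NRRA libraries, Mybl1 lies slightly lower, and the groups of Tcfl5 overlap.

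Stra8 (ENSMUSG00000029848, GRCm38 chromosome 6, 34920163 to 34939344, plus strand) encodes the RA-responsive factor that commits germ cells to meiosis. It had 261 and 300 counts in the Veh libraries (9.62 and 10.1 CPM) and 60702 and 55775 counts in the NRRA libraries (1864 and 1853 CPM). Both NRRA libraries lay far above both Veh libraries, and the libraries of each group were nearly level. The Veh mean was 9.85 ± 0.325 CPM and the NRRA mean 1858 ± 7.88 CPM (mean ± SD of 2 libraries, as for all such values). Its change, 7.56 on the log2 scale with an SE of 0.035 (edgeR adjusted p = 1.14e-37), ranked 9 of the 20232 tested, counted from the largest rise. Stra8 ranked 10779 and 10655 among all genes by counts in the Veh libraries and 10 in both NRRA libraries. It took 0.192% and 0.191% of all counts in NRRA, against 0.000931% and 0.000977% in Veh. Stra8 was thus low in Veh but far above the floor.

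Gm4969 (ENSMUSG00000085601, GRCm38 chromosome 7, 19099046 to 19118368, minus strand) encodes MEIOSIN, the partner of STRA8. The libraries held 120 and 158 counts in Veh (4.42 and 5.31 CPM) and 741 and 716 counts in NRRA (22.8 and 23.8 CPM). Both NRRA libraries were above both Veh libraries, and the Veh libraries differed 1.20-fold from each other. The mean rose from 4.87 ± 0.626 CPM to 23.3 ± 0.729 CPM. The log2 fold change was 2.25 (SE 0.11, edgeR adjusted p = 9.82e-16), rank 286 of the tested genes, counted from the largest rise. No other annotated exon overlaps Stra8 or Gm4969, and neither has a near-identical stretch elsewhere (95% identity or more across 100 bases or more).

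The rise of Stra8 was larger than that of its partner by 5.31 on the log2 scale (95% interval 5.07 to 5.54). In each Veh library the Stra8 counts were 2.18 and 1.90 times those of Gm4969, and in the NRRA libraries 81.9 and 77.9 times. This ratio does not depend on scaling between libraries. The partners were thus within a few-fold of each other in counts in Veh and far apart in NRRA. Per kilobase of exon, which allows levels to be compared between genes, Stra8 stood at 5.46 ± 0.18 and Gm4969 at 1.04 ± 0.133 CPM per kb in Veh (SD, n = 2). In NRRA they stood at 1031 ± 4.37 and 4.96 ± 0.155 CPM per kb.

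Zfp541 (ENSMUSG00000078796, GRCm38 chromosome 7, 16061814 to 16096334, plus strand) encodes a zinc finger protein of the spermatocyte deacetylase complex. It had 89 and 53 counts in Veh (3.28 and 1.78 CPM) and 209 and 183 counts in NRRA (6.42 and 6.08 CPM). Both NRRA libraries lay above both Veh libraries. The Veh libraries differed 1.84-fold, and their counting intervals of 2.64 to 4.04 and 1.33 to 2.33 CPM did not overlap. The log2 fold change was 1.32 (SE 0.20, edgeR adjusted p = 2.25e-06), from 2.53 ± 1.06 to 6.25 ± 0.239 CPM. Its size depended on which Veh library was used, with a fold of 3.5 without Veh replicate 1 and 1.90 without Veh replicate 2. The gene stayed called higher in both cases. Near-identical stretches in another gene cover 2.81% of its longest transcript.

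Kctd19 (ENSMUSG00000051648, GRCm38 chromosome 8, 105382807 to 105413502, minus strand) encodes the partner of ZFP541 and had the lowest counts of the 6. Its counts were 13 and 14 in Veh (0.479 and 0.471 CPM), against 34 and 32 in NRRA (1.04 and 1.06 CPM). The libraries of each group were level and the groups did not overlap, but the counting intervals did, reaching 0.820 and 0.789 CPM in Veh and starting at 0.723 and 0.727 CPM in NRRA. The log2 fold change was 1.14 (SE 0.40, edgeR adjusted p = 0.0159), from 0.475 ± 0.00622 to 1.05 ± 0.0134 CPM. The call was lost without Veh replicate 2 (1.13, edgeR adjusted p = 0.0696), without NRRA replicate 1 (1.16, 0.0673) and without NRRA replicate 2 (1.13, 0.0684), and with DESeq2 (1.15, adjusted p = 0.153). Plekhg4 on the opposite strand overlaps 1.84% of its exonic bases.

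The products of Zfp541 and Kctd19 act in 1 complex, and their changes could not be told apart. The difference of their log2 fold changes was 0.17, with a 95% interval from -0.73 to 1.08. Zfp541 counts were 6.85 and 3.79 times those of Kctd19 in the Veh libraries and 6.15 and 5.72 times in the NRRA libraries, so the NRRA values lay between the Veh values.

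Mybl1 (ENSMUSG00000025912, GRCm38 chromosome 1, 9667415 to 9700209, minus strand) encodes A-MYB, the pachytene activator. Its counts were 291 and 324 in Veh (10.7 and 10.9 CPM) and 309 and 244 in NRRA (9.49 and 8.10 CPM). Both NRRA libraries lay below both Veh libraries, and the NRRA libraries differed more from each other than the Veh libraries did. The mean went from 10.8 ± 0.113 to 8.80 ± 0.978 CPM, which is -0.29 on the log2 scale (SE 0.11, edgeR adjusted p = 0.0290). The value was -0.41 without NRRA replicate 1 and -0.19 without NRRA replicate 2 (edgeR adjusted p = 0.287). The call was also lost without Veh replicate 1 (-0.31, edgeR adjusted p = 0.0508) or Veh replicate 2 (-0.29, 0.0667), with DESeq2 (-0.29, adjusted p = 0.215) and with library size only (-0.21, 0.127). Scaled to the germ cell markers it was -0.36 (edgeR adjusted p = 0.0056). The summed fibroblast markers were lower in NRRA too, and their part in the Mybl1 value was not tested.

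Tcfl5 (ENSMUSG00000038932, GRCm38 chromosome 2, 180621956 to 180642708, minus strand) had the highest level of the 6 in Veh. It had 2457 and 2906 counts in Veh (90.6 and 97.7 CPM) and 3131 and 2686 counts in NRRA (96.1 and 89.2 CPM). The groups overlapped, with 1 higher and 1 lower library in each. The means were 94.1 ± 5.0 and 92.7 ± 4.89 CPM, and the log2 fold change was -0.023 (SE 0.044, edgeR adjusted p = 0.694). The 95% interval of -0.11 to 0.069 corresponds to folds of 0.924 to 1.05. Its sign turned with library size only (0.067), without Veh replicate 2 (0.032) and without NRRA replicate 2 (0.029). Col9a3 on the opposite strand overlaps 7.39% of the exonic bases of Tcfl5 and matches 10.5% of its longest transcript, so a small part of the counts could belong to either gene if strand was not used in counting.

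**Figure D2:**
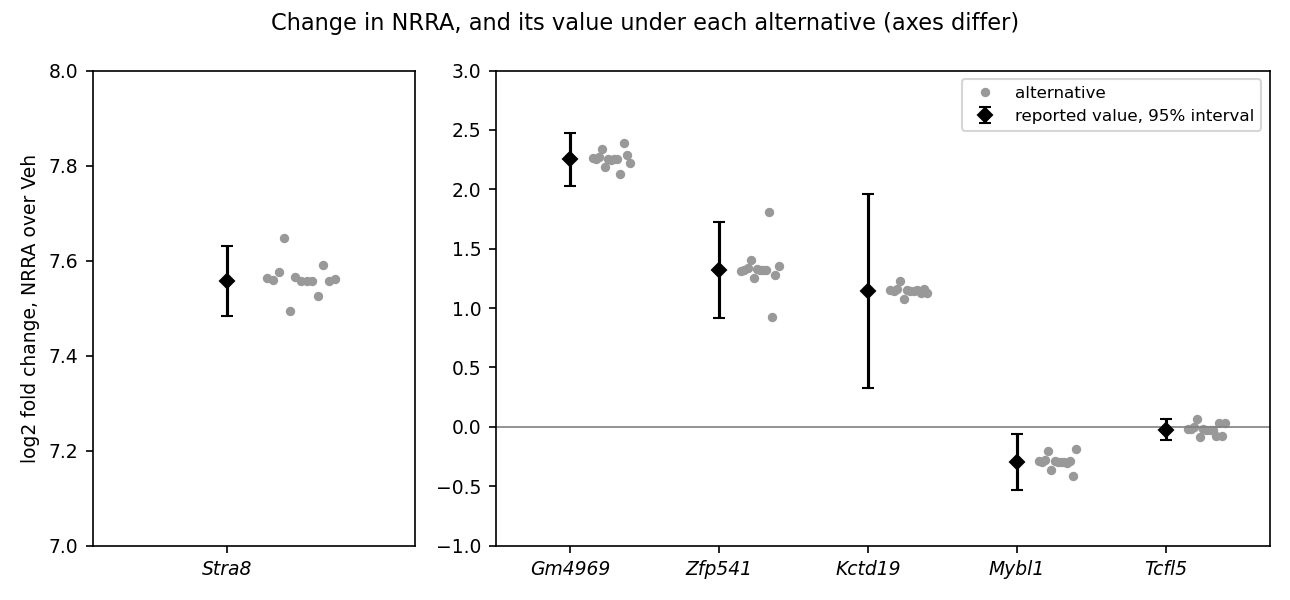
Log2 fold change of each regulator, NRRA over Veh, with its 95% interval (black diamonds) and its value under each alternative setting (grey points), with Stra8 on an axis of its own. The alternatives of Stra8 lie between 7.49 and 7.65 and those of Gm4969 between 2.13 and 2.39, Zfp541 spreads from 0.93 to 1.81, and the interval of Tcfl5 spans 0.

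Differences between the 6 changes were compared as 15 pairs, by intervals not adjusted for their number, and 14 of the 15 intervals left out 0. The SE of a difference joined the SEs of both genes as if independent, though both were measured in the same libraries. Gm4969 rose more than Zfp541 by 0.93 (95% interval 0.47 to 1.39) and more than Kctd19 by 1.11 (0.26 to 1.95) on the log2 scale. The first of these depended on Veh replicate 1, since without it the difference was 0.32 (95% interval -0.20 to 0.84). The second was of similar size without that library, at 0.97, with a wider interval that spanned 0 (-0.064 to 2.01). Without Veh replicate 2 Gm4969 exceeded Zfp541 by 1.46 (1.00 to 1.93). Within each library the counts of Gm4969 were 1.35 and 2.98 times those of Zfp541 in Veh and 3.55 and 3.91 times in NRRA. Zfp541 differed from Mybl1 by 1.61 (1.15 to 2.08) and from Tcfl5 by 1.34 (0.93 to 1.75). The difference of Mybl1 from Tcfl5 was -0.27 (-0.52 to -0.022), and its interval spanned 0 without Veh replicate 1 (-0.23) or NRRA replicate 2 (-0.22).

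The summed counts of the early regulators passed those of the later ones in NRRA, which rested on Stra8. Summed counts of Stra8 and Gm4969 were 0.134 and 0.139 times those of the later 4 in the Veh libraries and 16.7 and 18.0 times in the NRRA libraries. In summed CPM the early pair went from 14.0 and 15.4 to 1887 and 1876, while the later 4 stood at 105 and 111 in Veh and 113 and 104 in NRRA. The share of Stra8 in the early counts was 68.5% and 65.5% for Veh but 98.8% and 98.7% for NRRA. Tcfl5 made up 85.0% to 88.1% of the later counts in all libraries. The ratio thus mostly set Stra8 against Tcfl5. The change of the log2 ratio was 6.99 by summed counts, 4.36 when each gene weighed equally as the mean of log2 counts, and 2.25 with Gm4969 alone as the early regulator. The side on which the libraries lay depended on the measure. As the mean of log2 counts the log2 ratio was already above 0 in Veh (0.061 and 0.42) and reached 4.54 and 4.67 in NRRA. With Gm4969 alone it stayed below 0, at -4.57 and -4.38 in Veh and -2.31 and -2.14 in NRRA. With 2 libraries against 2, an exact permutation test cannot give a p below 0.333, so none is given for the ratio.

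**Figure D3:**
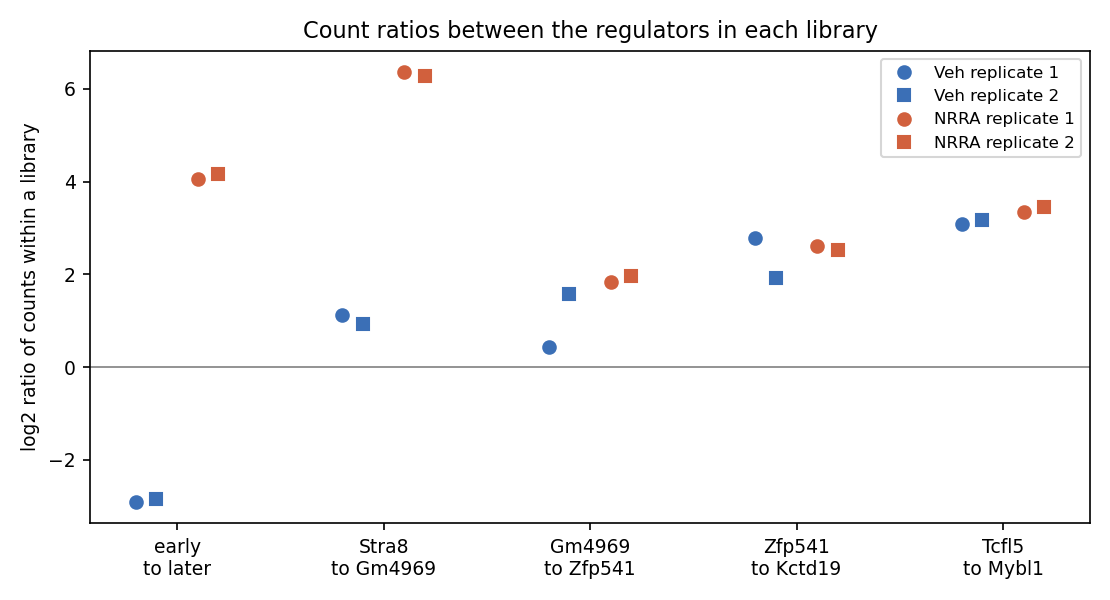
Log2 ratios of counts within each library for the early to the later regulators and for 4 pairs of regulators, with Veh in blue and NRRA in orange. The early to later and the Stra8 to Gm4969 ratios separate the groups widely, and the NRRA values of Zfp541 to Kctd19 lie between the Veh values.

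The order of levels changed mainly through Stra8. In CPM per kb of exon, Veh had Tcfl5 (29.7 ± 1.58), Stra8 (5.46 ± 0.18), Mybl1 (2.00 ± 0.0209), Gm4969 (1.04 ± 0.133), Zfp541 (0.519 ± 0.217) and Kctd19 (0.156 ± 0.00204), as mean ± SD with n = 2. In NRRA the order was Stra8 (1031 ± 4.37), Tcfl5 (29.3 ± 1.54), Gm4969 (4.96 ± 0.155), Mybl1 (1.63 ± 0.181), Zfp541 (1.28 ± 0.0491) and Kctd19 (0.346 ± 0.00441). Gm4969 passed Mybl1. The libraries of neighbouring genes did not overlap in either group, and the closest neighbours were Mybl1 (1.76 and 1.5 CPM per kb) and Zfp541 (1.32 and 1.25 CPM per kb) in NRRA. In both groups Kctd19 was the lowest.

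**Figure D4:**
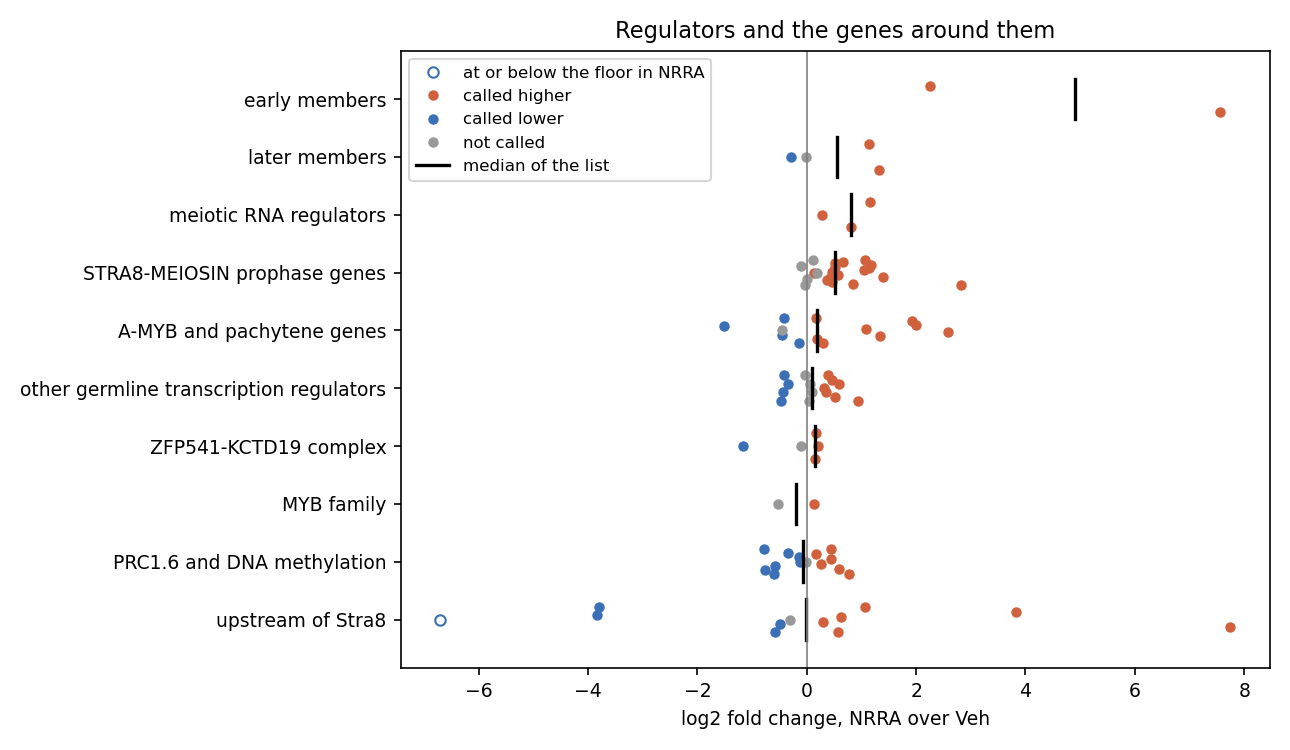
Log2 fold change (NRRA over Veh) of each tested gene in lists of related genes, coloured by its edgeR call, with a black bar at each list's median. The open circle is Nanos2, whose fitted value has no meaning as a size because both NRRA libraries were at or below 3 counts. The prophase list has no gene called lower, while the lists upstream of Stra8 and of PRC1.6 have calls on both sides.

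Genes that act on Stra8 went both ways. Of 12 such genes, 6 were called higher and 5 lower, with a median of -0.0063, where 27.9% of all tested genes were called higher and 28.4% lower. Rarb, an RA receptor and itself an RA target, was counted 1 and 9 times in the Veh libraries and 1212 and 1204 times in the NRRA libraries (7.74, SE 0.19, edgeR adjusted p = 1.07e-21). Its Veh counts lie around the floor, so the size of that change is poorly fixed, at 6.98 without Veh replicate 1 and 9.87 without Veh replicate 2. Top2b on the opposite strand overlaps 34.1% of its exonic bases, so part of its counts could belong to either gene if strand was not used in counting. Cyp26b1, which degrades RA, rose by 3.82 on the log2 scale. The receptor gene Rara rose by 0.57, whereas Rarg fell by 0.58. Rxrg fell from 219 and 248 counts to 29 and 7 counts, a change of -3.83 that was -5.11 without NRRA replicate 1 and -3.20 without NRRA replicate 2. Dmrt1, a known repressor of Stra8 in spermatogonia, rose by 0.63. Nanos2, an RNA-binding repressor of Stra8, was counted 145 and 163 times in the Veh libraries against 0 and 3 times in the NRRA libraries, at least 56.4-fold lower when set against the mean floor of the latter. Gm45058 overlaps 49% of its exonic bases on the opposite strand.

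PRC1.6, a Polycomb complex that binds through E2F6 and MGA-MAX, and DNA methylation are known to keep germline genes such as Stra8 and Gm4969 silent. Of 14 such genes, 6 were called higher and 7 lower, with a median of -0.074, where 27.9% of all tested genes were called higher and 28.4% lower. DESeq2 called 6 higher and 6 lower, and with library size only there were 7 higher and 5 lower. E2f6, whose motif lies in the Gm4969 window shown above, went from 88.6 ± 4.41 to 52.4 ± 0.207 CPM, which is -0.76 on the log2 scale (SE 0.047, edgeR adjusted p = 2.06e-13). Max fell by 0.59 and Pcgf6, the defining subunit, by 0.58, while Mga stood at -0.022 (edgeR adjusted p = 0.487). The catalytic subunits Ring1 and Rnf2 rose by 0.78 and 0.59. Among DNA methyltransferases Dnmt3a fell by 0.78 and Dnmt3b rose by 0.44.

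Partners and relatives of the regulators ranged from -1.17 for Elmsan1 to 1.16 for Rbm46 on the log2 scale. Their calls stand beside 27.9% of all tested genes called higher and 28.4% lower. All 3 RNA regulators of meiotic entry were called higher, Rbm46 by 1.16, Meioc by 0.82 and Ythdc2 by 0.28 on the log2 scale. Of 5 genes around the ZFP541-KCTD19 complex, 3 were called higher and 1 lower, with a median of 0.14. Hdac2 (0.20), Dnttip1 (0.16) and Hdac1 (0.14) are the deacetylases and a scaffold of that complex. With libraries scaled to germ cell markers the list had 1 gene higher and 2 lower, since the calls of Dnttip1 and Hdac1 were lost and Trerf1 was called lower (-0.16). DESeq2 called 2 higher and 1 lower, without Dnttip1, and 71.1% of the longest Hdac1 transcript has near-identical stretches elsewhere. Elmsan1, another deacetylase scaffold, fell by 1.17 (SE 0.048, edgeR adjusted p = 4.81e-17). The MYB paralog Mybl2 had 0.13 (edgeR adjusted p = 0.0492), a call lost under 5 alternatives, and Myb, at 13 to 20 counts, was not called (-0.53).

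Prophase genes usually placed downstream of STRA8 and MEIOSIN rose or were not called. Of 22, 21 were tested. Spata22, with 0 to 13 counts, was too low, and 80.5% of its exonic bases overlap Gm49340 on the same strand. By edgeR 16 were called higher and 0 lower, with a median of 0.51, where 27.9% of all tested genes were called higher and 28.4% lower. With the unadjusted p of edgeR under 0.05 there were again 0 lower genes, and DESeq2 called 14 higher and 0 lower. Over the 35355 genes with any count, DESeq2 called 4252 higher and 4314 lower. Rec8, the meiotic cohesin, rose by 2.83 and was the top of the list. Prdm9, which marks recombination hotspots, went from 5.16 ± 0.259 to 11.7 ± 0.22 CPM, or by 1.17 on the log2 scale (SE 0.12, edgeR adjusted p = 5.08e-09). Mei1 rose by 1.14 and Ugt8a by 1.06. The 5 genes not called were Mei4 (0.19), Msh5 (0.11), Hormad2 (0.0015), Rad21l (-0.026) and Spo11 (-0.11). The calls of Meiob and Syce1 were lost without NRRA replicate 1 or Veh replicate 1 and with DESeq2. Syce1 also lost its call with libraries scaled to germ cell markers (0.070), where 15 genes were called higher.

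Pachytene genes and further germline transcription regulators had calls in both directions. Of 16 pachytene genes, many of them under A-MYB, 13 were tested, 8 were called higher and 4 lower, with a median of 0.18. Over all tested genes 27.9% were called higher and 28.4% lower, so calls in both directions are not particular to these genes. DESeq2 called 5 of them higher and 4 lower. Ccna1, a cyclin of meiotic division, was counted 19 and 21 times in the Veh and 108 and 156 times in the NRRA libraries (2.58, SE 0.27, edgeR adjusted p = 7.85e-09). The chaperone genes Clgn and Hspa2 rose by 1.99 and 1.08, and Rfx2, a factor of spermiogenesis, by 1.93. The 4 lower genes were Tdrd5 (-1.52), Tdrd1 (-0.45), Tdrd12 (-0.42) and Mael (-0.15), and the other higher genes were Tdrd6 (1.33), Piwil1 (0.30), Mov10l1 (0.18) and Tbpl1 (0.17). The calls of Tbpl1 and Piwil1 were lost under 4 and 3 of 13 alternatives, that of Tdrd6 under 2 of 12, and that of Mael with library size only. Ldhc was not called (-0.45, edgeR adjusted p = 0.0708). Mael is also counted among the germ cell markers above. Among 15 tested further regulators, of differentiating spermatogonia, spermatocytes and spermatids, 7 were called higher and 4 lower, beside the same 27.9% and 28.4% of all tested genes. Their median was 0.088. They ranged from Sohlh1 (0.94) to Dmrtb1 (-0.47), both also on the list of differentiating spermatogonia markers. The call of Dmrtb1 was lost under 2 of 13 alternatives, and its value was -0.32 without Veh replicate 1. DESeq2 called 6 of these 15 higher and 2 lower. The 8 spermatid markers summed to at most 12.4 CPM in any library.

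Genes with the pattern most like each regulator were found by the distance between centred log2 CPM values over the 4 libraries, among 16546 or 16547 genes. Cyp26a1 (distance 0.50) and Rarb (1.25) came closest to Stra8. Kcnt1 (0.089) and Sorcs3 (0.11) came closest to Gm4969, and Kng2 (0.12) and Gm44148 (0.19) to Zfp541, with the same lower second Veh library. Gas1 (0.0076) and Ccnjl (0.029) were nearest to Kctd19, Thbs2 (0.021) and Mmp19 (0.021) to Mybl1, and Gm28535 (0.0091) and Epm2aip1 (0.014) to Tcfl5. With 4 libraries in 2 groups, the distance mostly reflects the size of the change.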

How the data were processed

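Poly(A) RNA-seq of 4 libraries (2 Veh, 2 NRRA) was used. The authors deposited raw counts per gene (whole numbers, summing differently for each library), which the submitters' processing notes credit to bcl2fastq, STAR 2.6.1c and featureCounts 1.6.4 with mm10. The study's methods describe a stranded Tecan kit with oligo-dT capture, and the labels a TruSeq kit. The annotation release and the strand setting of the counting are not given in the sources used here, so reads of overlapping genes may be shared. Groups and replicate numbers came from the titles. The descriptions and columns of the Veh libraries carry other numbers, and columns were matched by description.

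From these counts, edgeR 4.0.16 in R 4.3.3 (filterByExpr, TMM, robust quasi-likelihood F test, no block) was fitted to the whole table, with Benjamini-Hochberg adjustment over 20232 genes and a threshold of 0.05. SEs were derived from the F statistic. The alternatives were DESeq2 (here version 1.42.0), a method the study also used without giving its version, other scalings and filters, the replicate block and fits without each library. The script was tested on simulated counts. Log2 CPM used a prior count of 2. Likeness was measured among tested genes whose mean log2 CPM was not below 0. Coordinates, exon lengths and overlaps came from GENCODE M21 (GRCm38, the build of mm10), which held 99.7% of the gene identifiers. Near-identical stretches were found by BLAST. All 6 regulators were described in full, and the 2 genes most like each were named. The plan was to name the top and bottom gene of each list and up to 6 more. More were named for the prophase and pachytene lists, and some marker lists are given without their top or bottom gene. The regulators and lists were chosen with earlier results of these data known.

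Libraries of the same number did not deviate together (correlation of deviations -0.011), so the numbers were not taken as pairs. The libraries of a group differed by more than sampling noise (chi-square per degree of freedom 2.45 in Veh and 1.99 in NRRA), and all 4 were counted separately.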

Additional observations from a re-analysis of the deposited data

How the results depend on the processing

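Under 13 alternatives Stra8, Gm4969 and Zfp541 stayed past the threshold in the same direction, at log2 fold changes of 7.49 to 7.65, 2.13 to 2.39 and 0.93 to 1.81. Kctd19 kept its call under 8 of 12 and had no value with at least 50 counts in 2 libraries, which it did not reach. DESeq2 gave 1.15 (adjusted p = 0.153), and leaving out 1 library gave 1.13 to 1.16. Mybl1 kept its call under 8 of 13. It was -0.29 with DESeq2 (adjusted p = 0.215), -0.21 with library size only (edgeR adjusted p = 0.127) and -0.41 to -0.19 with 1 library left out. Tcfl5, never past the threshold, had the other sign with library size only (0.067), without Veh replicate 2 (0.032) and without NRRA replicate 2 (0.029), and it ranged from -0.075 to 0.032 with 1 library left out. Fits without 1 library assume that the lone library varies like the other group. The cause of these differences was not tested.

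The early to later log2 ratio changed by 6.99 with summed counts, by 7.31 with counts per kilobase, by 4.36 with the mean of log2 counts and by 2.25 with Gm4969 without Stra8. Calls over all genes stayed within 1.5 times the reported counts of 5654 and 5752, from 4252 (DESeq2) to 6962 (library size only) higher and from 4314 (DESeq2) to 6525 (germ cell scaling) lower. The share of calls that were higher was 49.6% with TMM, 60.3% with library size only (6962 higher and 4593 lower, median of all genes 0.090) and 41.7% with germ cell scaling (4676 higher and 6525 lower, median -0.065). With the replicate block, a term for library number that the data did not bear out as a pairing, 5772 genes were higher and 5836 lower, and none of the 6 regulators changed its call. Leaving out 1 library in the differences between pairs of regulators was added after seeing the data. Then 11 to 14 of the 15 intervals left out 0. The difference of Zfp541 from Kctd19 turned to -0.20 without Veh replicate 2, within its interval, and ranged up to 0.65. At 13 to 34 counts per library, depth limits what can be said of Kctd19.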
